A study of Mus musculus with 18 samples.

Results

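Cyclosporin A (CsA) was compared with the forskolin and rolipram medium (FR10) in cultured mouse primordial germ cell-like cells (PGCLCs), the germline precursors made in vitro from embryonic stem cells. The comparison takes the 2 libraries titled d4c7 with CsA and the 2 titled d4c7 with FR10, 4 of the 18 libraries of the series, and covers every gene in their files. Of 34896 genes listed, 9561 reached 10 RPM (reads scaled to a common library total) in at least 2 of the 18 libraries and were tested. The labels write d4c7 for PGCLCs taken at day 4 of induction and grown for 7 days. Both groups carried strain B6D2F1 and the Blimp1-mVenus and Stella-ECFP reporters (BVSC), and both were sorted for mVenus. The level of Prdm1, which encodes Blimp1, is therefore not independent of the sort. The cells grew on m220-5 feeder cells that had been adapted to forskolin and rolipram and treated with mitomycin C, in medium with serum replacement, fetal calf serum and stem cell factor (SCF) at 100 ng/ml. Forskolin was at 10 µM in that medium. The labels read here state neither the dose of CsA nor whether forskolin and rolipram stayed in the CsA cultures, so an effect of adding CsA and an effect of leaving out the other agents cannot be told apart. The protocol calls the 2 replicates of each culture biological. Other cultured groups are used below only for contrast: d4c7 cells with FGF10 or FGF2 (2 libraries each, same strain, reporters and sort), and primordial germ cells of E9.5 embryos (B6D2F1 x C57BL/6, Stella-EGFP reporter, EGFP sort) cultured for 5 days with FR10 or CsA (E9.5c5, 2 libraries each).

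CsA binds cyclophilins, a family of peptidyl-prolyl isomerases, and the complex of CsA with cyclophilin A inhibits calcineurin, the calcium-dependent phosphatase that activates NFAT transcription factors. Forskolin activates adenylyl cyclase and rolipram inhibits the phosphodiesterase that breaks down cyclic AMP, so FR10 raises cyclic AMP. Migrating and early gonadal germ cells depend on SCF acting through the receptor Kit. Cells that fold many secreted proteins draw on chaperones of the endoplasmic reticulum (ER), and the unfolded protein response raises those chaperones when folding fails.

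The 4 libraries were of similar depth. Between 2582437 and 3455407 reads per library were inferred from the RPM steps, so that 3 reads corresponded to 0.868 to 1.16 RPM. The germ cell genes Dppa3, Prdm14 and Tfap2c, known as markers of these cells, were detected in all 4. A fibroblast list was also detected, with its 18 genes summing to 1428 and 1418 RPM with FR10 and 1485 and 1107 RPM with CsA. Of its defining members, Lum was listed at 0 in all 4 libraries, while Dcn measured 76.7 and 69.4 RPM with FR10 and 47.5 and 10.6 RPM with CsA. Mesoderm and somatic markers summed to between 19.9 and 38.3 RPM over 17 genes. In such sorted bulk samples, fewer cells of a type and less RNA per cell cannot be told apart. Cytosolic ribosomal protein genes took 272653 and 275017 RPM with FR10 and 341924 and 340345 RPM with CsA, and genes at 10 RPM or more numbered 7740 and 7832 against 7251 and 7263. Since RPM is a share of each library, this gain lowers the shares left to other genes. The gain was not particular to CsA. Ribosomal protein genes took 333516 and 373026 RPM in the d4c7 FGF2 libraries and 294568 and 283408 RPM in the FGF10 libraries.

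Secretory pathway genes led the higher side and 1 transcription factor gene the lower side. In limma on log2(RPM + 1), with Benjamini-Hochberg adjustment at 0.05, Sec61b and Hsp90b1 rose and Dmtf1 fell, which is 3 of 9561 genes or 0.0314% (0.0209% higher and 0.0105% lower). At an unadjusted p under 0.05 there were 1317 genes (13.8%). A looser description counts genes whose 2 CsA libraries both lie above, or both lie below, the 2 FR10 libraries: 1093 genes (11.4%) were higher and 3976 (41.6%) lower by it, and the median log2 difference over all tested genes was -0.24. With median-ratio scaling these counts became 2215 (23.2%) higher and 2276 (23.8%) lower, the median moved to -0.02, and limma called 9 genes (0.0941%), 8 of them (0.0837%) higher. Every gene value below is on the RPM scale and is to be read against that median.

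The number of calls rested on libraries outside the comparison, because all 18 set the spread. Leaving out d4c7 FGF2 replicate 2, E9.5c5 FR10 replicate 2 and E9.5c5 CsA replicate 2, whose groups were the most widely spread, gave 968 called genes (10.1%), 175 higher (1.83%) and 793 lower (8.29%). Weighting libraries by their spread gave 474 (4.96%), all of them among the 968. In contrast, the 12 cultured libraries alone, the 8 d4c7 libraries alone and the 4 libraries alone each gave 0 calls, the last with 1970 genes (20.6%) at an unadjusted p under 0.05, and so did leaving out any 1 of the 4. With 2 libraries per group the spread is that of the pair, so neither library of a pair is shown to be the wide one. The 3 libraries left out are called widely spread below for their groups. Leaving out 1 library of a pair takes its group out of the spread. Leaving out widely spread libraries lowers the estimated error by its construction, so calls of that fit show how the threshold depends on the spread and are no separate support. Adjusted p-values are given below from the fit of all 18 libraries and, for single genes or as counts, from the fit without those 3 libraries.

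**Figure D1:**
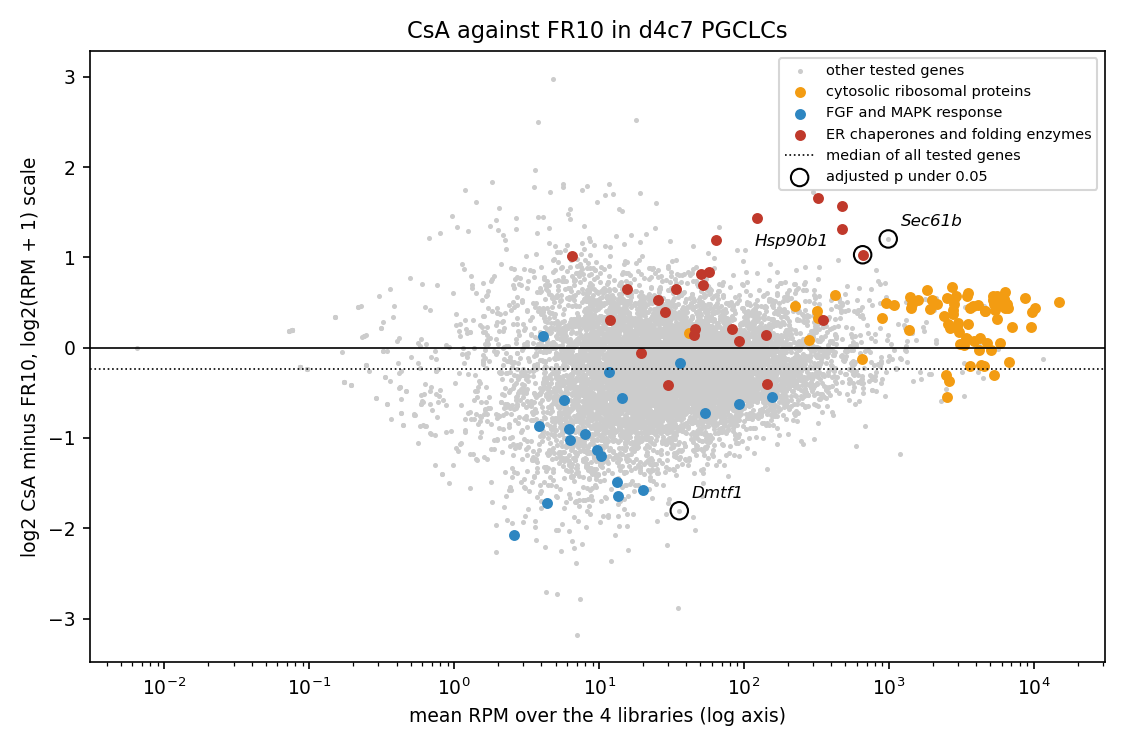
Each point is a tested gene, with its mean RPM over the 4 libraries on a log axis and its log2 difference, CsA minus FR10, on the log2(RPM + 1) scale. The dotted line is the median of all tested genes, -0.24. Most ER chaperone genes (red) lie above it, most FGF and MAPK response genes (blue) below it, and the 3 circled genes passed limma at an adjusted p under 0.05.

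Sec61b encodes the small β subunit of the Sec61 channel, through which new proteins enter the ER. Its level was 586 and 607 RPM with FR10 and 1481 and 1276 RPM with CsA. The groups lay far apart, and both CsA libraries also exceeded the 4 libraries with FGF10 or FGF2, which held 627 to 829 RPM. The log2 difference was 1.20 ± 0.17 (SE, n = 2 against 2), with a limma adjusted p of 0.024. The Sec61b transcript model is short, at 564 bases, and short transcripts as a class were less low than longer ones (described below). After a correction for transcript length, chosen after that association was seen, the difference was 0.67 and the adjusted p 0.258.

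Hsp90b1 encodes the ER member of the HSP90 chaperone family. It measured 451 and 414 RPM with FR10 and 848 and 918 RPM with CsA. The FR10 and CsA values did not overlap, and the FGF10 and FGF2 libraries, at 262 to 456 RPM, lay on the FR10 side. Its log2 difference was 1.03 ± 0.16 (SE) with an adjusted p of 0.038, and 1.04 with an adjusted p of 0.047 after the length correction.

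Several, though not all, of the chaperones known as classical targets of the unfolded protein response were higher too, without passing in the fit of all 18 libraries. Hspa5, the ER member of the HSP70 family, measured 257 and 288 RPM with FR10 and 660 and 697 RPM with CsA. Pdia6, a protein disulfide isomerase, measured 246 and 233 RPM against 644 and 781 RPM. Manf, a secreted ER stress protein, measured 145 and 165 RPM against 459 and 526 RPM. In all 3 genes the CsA libraries lay above the FR10 libraries, with log2 differences of 1.31 ± 0.31, 1.56 ± 0.37 and 1.66 ± 0.31. The limma adjusted p was 0.113 for Hspa5, 0.113 for Pdia6 and 0.059 for Manf. Without the 3 widely spread libraries it was 5.3e-06, 4.1e-07 and 6.5e-07, and all 3 genes were called. As stated above, that fit is no separate support, for these genes or for those below. With median-ratio scaling all 3 were also called, at 0.025, 0.029 and 0.0020.

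**Figure D2:**
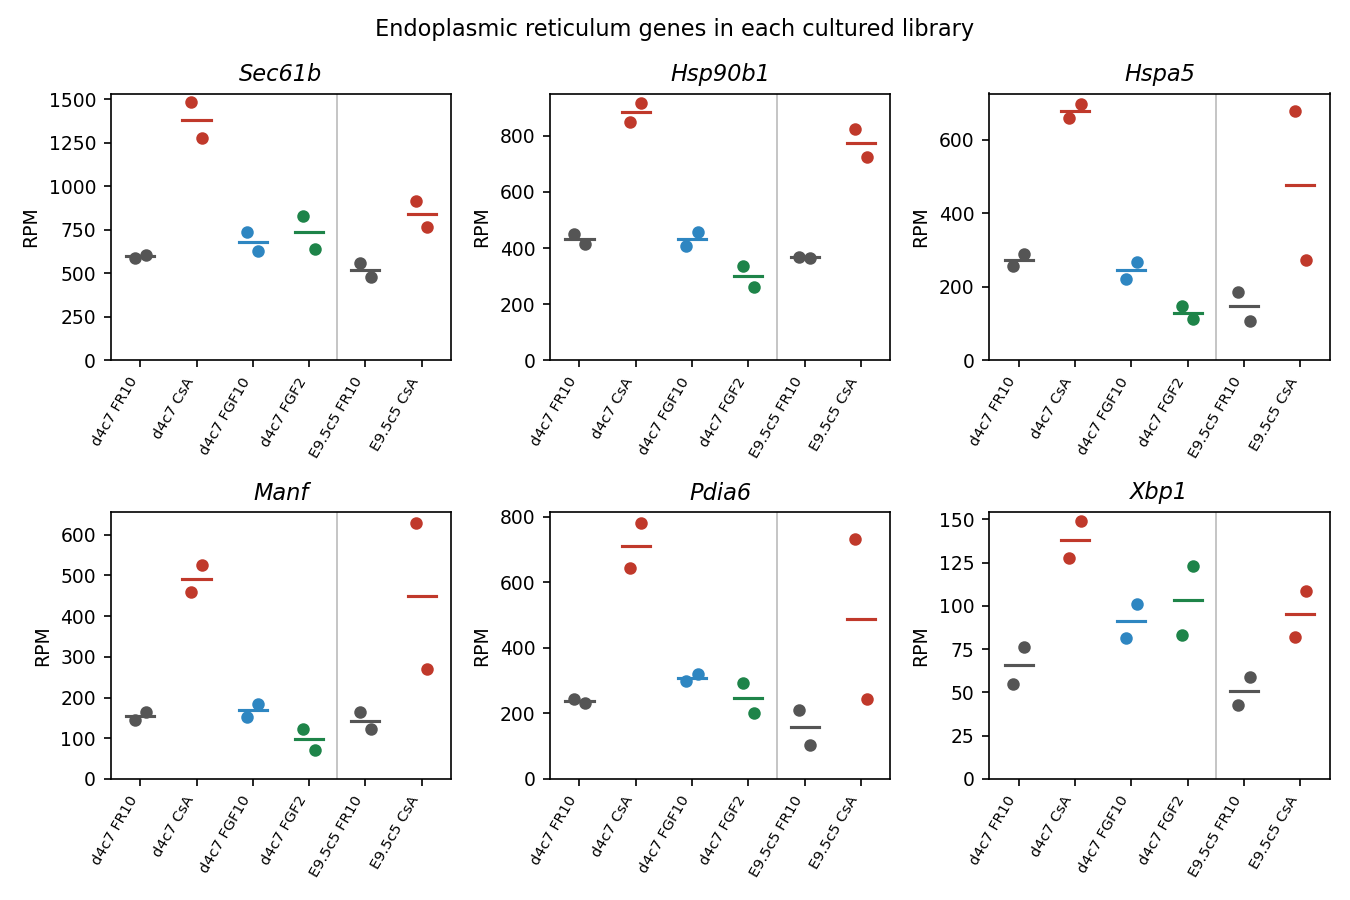
RPM of 6 ER genes in each of the 12 cultured libraries. Points are single libraries, horizontal lines are means of 2, and the grey line separates PGCLCs from cultured E9.5 germ cells. With CsA, both d4c7 libraries stand above every other d4c7 library for each of the 6 genes.

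Calr encodes calreticulin, the calcium-binding lectin chaperone, and held 53.8 and 79.8 RPM with FR10 against 168 and 191 RPM with CsA. Creld2, another ER stress-inducible protein, held 42.6 and 34.9 RPM against 84.5 and 94.9 RPM. Again no CsA library fell within the FR10 range. Their log2 differences were 1.44 ± 0.42 and 1.20 ± 0.40, with adjusted p-values of 0.163 and 0.220. Dnajc3, an HSP40 partner of Hspa5, was at 39.1 and 40.0 RPM and then 67.1 and 62.5 RPM (log2 0.70 ± 0.28, adjusted p 0.293). Canx, the membrane-bound relative of calreticulin, showed no such separation, at 139 and 127 RPM with FR10 and 123 and 176 RPM with CsA. Over the list of 26 ER chaperones and folding enzymes, 24 were tested and 1 was called. In 14 of the 24 (58.3%) the CsA libraries were the higher and in 3 (12.5%) the lower, where all tested genes gave 11.4% and 41.6%. The list's median log2 difference was 0.59, and it was 0.57 after the length correction. Without the 3 widely spread libraries, 9 of the 24 rose and 0 fell, where 1.83% of all tested genes rose and 8.29% fell. Their summed level was 2362 and 2324 RPM with FR10 and 4136 and 4617 RPM with CsA, and the FGF10 and FGF2 libraries held 1870 to 2522 RPM.

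Promoters of these genes are shown because several of them hold the ER stress response element (ERSE), the element through which ATF6 is known to act. RefSeq promoters of build GRCm38.p6, 250 bases before to 50 bases after each gene start, were searched on both strands for the letters CCAAT and CCACG with 9 bases of any kind between them. Capitals mark the CCAAT and CCACG letters of each match, or their complement where the match is on the other strand. The Hspa5 promoter, chr2:34771840-34772139 on the plus strand, holds 1 match and the Hsp90b1 promoter, chr10:86705395-86705694 on the minus strand, holds 2. The Pdia6 promoter, chr12:17266339-17266638 on the plus strand, holds 1.
Hspa5: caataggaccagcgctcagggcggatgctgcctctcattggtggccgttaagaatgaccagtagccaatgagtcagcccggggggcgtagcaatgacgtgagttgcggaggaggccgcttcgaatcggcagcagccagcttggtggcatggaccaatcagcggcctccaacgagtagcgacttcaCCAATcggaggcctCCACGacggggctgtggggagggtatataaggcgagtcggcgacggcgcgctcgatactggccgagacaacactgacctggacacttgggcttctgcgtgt
Hsp90b1: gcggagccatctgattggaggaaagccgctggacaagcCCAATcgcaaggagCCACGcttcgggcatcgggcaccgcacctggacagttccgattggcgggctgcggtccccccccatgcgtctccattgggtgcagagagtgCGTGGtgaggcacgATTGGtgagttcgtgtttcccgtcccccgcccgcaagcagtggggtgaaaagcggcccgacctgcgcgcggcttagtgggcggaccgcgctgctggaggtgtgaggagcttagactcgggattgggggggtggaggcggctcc
Pdia6: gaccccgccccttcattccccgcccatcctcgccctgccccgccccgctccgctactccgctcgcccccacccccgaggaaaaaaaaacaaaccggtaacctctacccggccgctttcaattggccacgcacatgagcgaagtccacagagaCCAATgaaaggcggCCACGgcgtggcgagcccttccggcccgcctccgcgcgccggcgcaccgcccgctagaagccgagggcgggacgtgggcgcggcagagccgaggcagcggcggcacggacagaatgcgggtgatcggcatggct

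The single matches in promoters of 6 further tested ER genes are shown in the orientation of the element. Each position, counted from the gene start, is that of the base of the match farthest upstream on the gene strand. In Calr, Creld2 and Derl3 the match is on the other strand, so that base is the last one printed.
Calr at -162: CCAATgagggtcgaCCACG
Creld2 at -126: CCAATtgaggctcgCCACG
Derl3 at -156: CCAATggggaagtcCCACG
Dnajc3 at -105: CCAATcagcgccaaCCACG
Canx at -145: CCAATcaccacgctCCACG
Syvn1 at -44: CCAATcggcggtagCCACG

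The 9 central bases differ from gene to gene while the flanking letters are fixed by the search. Of 27025 genes with a promoter, 37 (0.137%) held the ERSE letters, and of 7748 tested genes with a promoter, 14 (0.181%) did. In 7 of those 14 (50.0%) the CsA libraries were the higher and in 1 the lower, where all tested genes gave 11.4% and 41.6%, with a median log2 difference of 0.46. The 7 were Hspa5, Hsp90b1, Pdia6, Calr, Creld2, Derl3 and Dnajc3, of which Hsp90b1 alone was called in the fit of all 18 libraries. The 5 holders outside the ER lists (Acacb, Hnrnpa3, Pan2, Xlr3a and Xlr3b, named for that reason alone) gave 0 higher and 1 lower, with a median of 0.03. Canx, given above, and Syvn1, a ubiquitin ligase of ER-associated degradation at 12.0 and 21.4 RPM with FR10 and 15.0 and 23.6 RPM with CsA, hold the letters and overlapped between the groups. Of 19 tested ER chaperone genes with a promoter, 7 held the letters, and of 13 for ER-associated degradation 2 did. The promoter of Sec61b, a called gene, held 0 matches. The letters also stood in 0 of 15 promoters for translocation and signal peptide processing. They stood in 0 of 10 for N-glycosylation and 0 of 21 for stress sensors and the ATF4 branch. A related form, ATTGG and CCACG with 1 base of any kind between them, has the first block inverted, so a base can belong to both. It stood in 12 genes (0.0444%), of which 9 were tested, with 4 higher (44.4%) and 3 lower (33.3%). The median log2 difference of these 9 was -0.27. Outside the ER lists its 6 tested holders gave 1 higher and 3 lower, with a median of -0.41. TGACGTGG, known as the XBP1 element, stood in 193 genes (0.714%), of which 82 were tested, with 11 higher (13.4%) and 35 lower (42.7%), close to the shares of all tested genes. These are matches of letters and not measured binding.

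Other steps of the secretory route were higher by smaller amounts. Of 22 tested genes of translocation and signal peptide processing, 10 (45.5%) had the CsA libraries higher and 3 (13.6%) lower. Their median log2 difference was 0.22. All tested genes gave 11.4% higher and 41.6% lower. Ssr4, a subunit of the translocon-associated complex, went from 73.6 and 105 RPM to 155 and 157 RPM (log2 0.82 ± 0.21, adjusted p 0.135). Sec61a1, which forms the channel itself, held 140 and 176 RPM with FR10 and 246 and 233 RPM with CsA, a log2 difference of 0.61 ± 0.23. The oligosaccharyltransferase adds N-glycans to entering proteins, and 9 (75%) of its 12 tested genes were higher with CsA and 1 (8.33%) lower (median 0.29). Its subunit genes Krtcap2, at 230 and 232 RPM and then 429 and 431 RPM, and Dad1, at 86.7 and 112 RPM and then 168 and 142 RPM, had log2 differences of 0.89 ± 0.20 and 0.64 ± 0.22. Mlec, a glycan-binding ER protein, differed by 0.71 ± 0.17 and Txndc11, a thioredoxin-domain ER protein, by 1.33 ± 0.31. None of these genes passed in the fit of all 18 libraries, with adjusted p-values of 0.104 to 0.255 across the 6. Each was called without the 3 widely spread libraries.

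ER-associated degradation returns misfolded proteins to the cytosol. Of its 17 tested genes, 5 (29.4%) were higher and 1 (5.88%) lower, with a median of 0.21, where all tested genes gave 11.4% and 41.6%. Derl3, a derlin of that route, had the largest difference in it, with 33.3 and 42.8 RPM in FR10 and 101 and 92.2 RPM in CsA (log2 1.33 ± 0.35, adjusted p 0.139). Among stress sensors and the ATF4 branch, 9 (39.1%) of the 23 tested genes were higher and 5 (21.7%) lower, with a median of 0.02. Xbp1, the transcription factor spliced by IRE1, was at 55.0 and 76.3 RPM with FR10 and 128 and 149 RPM with CsA. The libraries did not overlap, and the log2 difference was 1.08 ± 0.26 with an adjusted p of 0.116. Ddit3, the CHOP transcription factor of the PERK branch, was low, at 4.26 and 10.4 RPM against 26.0 and 16.9 RPM (log2 1.51 ± 0.78, adjusted p 0.407). Ppp1r15a, which encodes the inducible subunit that reverses eIF2α phosphorylation, was on the other side, at 9.29 and 7.25 RPM with FR10 and 2.03 and 1.81 RPM with CsA (log2 -1.66 ± 0.55, adjusted p 0.223). Atf4 itself differed by 0.26 ± 0.20. Total Xbp1 RNA is what 3' reads measure, so splicing was not observed.

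Cyclophilins, the binding partners of CsA, were as a list close to all tested genes. Ppia, cyclophilin A, was the most abundant of 16 tested cyclophilins, at 5346 and 6049 RPM with FR10 and 5830 and 5449 RPM with CsA. These values overlapped, and the log2 difference was -0.01 ± 0.19, which became 0.22 with median-ratio scaling. Ppib, the ER cyclophilin, also overlapped, with a log2 difference of 0.40 ± 0.53. Ppif, the mitochondrial cyclophilin and regulator of the permeability pore, was lower without overlap, at 24.8 and 30.0 RPM with FR10 and 10.7 and 10.9 RPM with CsA (log2 -1.26 ± 0.37, adjusted p 0.169, and 0.0063 without the 3 widely spread libraries). In the cyclophilin list 0 genes were higher and 7 (43.8%) lower, close to the 41.6% of all tested genes, with a median of -0.21 against -0.24. Rcan1, a calcineurin inhibitor and a known NFAT target, measured 50.7 and 69.0 RPM against 77.8 and 73.7 RPM, a log2 difference of 0.35 ± 0.28. The 11 tested genes of calcineurin and NFAT gave 2 (18.2%) higher and 5 (45.5%) lower, also close to all tested genes in the lower share.

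Dmtf1 was the only gene that fell at the adjusted threshold in the fit of all 18 libraries. It encodes a Myb-like transcription factor known to bind D-type cyclins. The level was 70.9 and 42.1 RPM with FR10 and 13.9 and 16.0 RPM with CsA, without overlap. The log2 difference was -1.81 ± 0.29 with a limma adjusted p of 0.038. The FGF2 libraries, which held 9.89 and 8.75 RPM, were lower still, and the FGF10 libraries held 34.9 and 43.1 RPM.

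Kit, the receptor of the SCF supplied in the medium, was also among the genes with the smallest p-values on the lower side. Its level was 230 and 182 RPM with FR10 and 71.8 and 89.4 RPM with CsA. Both CsA libraries lay below both FR10 libraries, and also below the FGF10 libraries at 114 and 145 RPM, while FGF2 held 43.4 and 48.1 RPM. The log2 difference was -1.34 ± 0.25, the adjusted p 0.059, and 5.8e-04 without the 3 widely spread libraries. Tcf12, an E-protein transcription factor, was at 79.8 and 76.0 RPM with FR10 and 29.8 and 24.2 RPM with CsA (log2 -1.50 ± 0.28, adjusted p 0.059). Tcfl5, a bHLH factor expressed in the male germline, was at 7.74 and 11.4 RPM and then 0.289 and 0.906 RPM, the last values standing for a few reads. The remaining genes among the 15 lowest p-values on the lower side were Rheb, Dars, Slc23a1, Tfdp1, Nup153, Ptpn12, Ppat, Cacybp, Zfp532, Ublcp1 and Evi5. Rheb, the GTPase that activates mTORC1, was at 255 and 210 RPM against 113 and 122 RPM. Tfdp1, the dimer partner of E2F factors, was at 228 and 230 RPM against 109 and 108 RPM. With FGF2, Rheb was at 107 and 96.5 RPM and Tcf12 at 32.7 and 21.9 RPM, near the CsA values. Tfdp1, at 200 and 178 RPM, and Tcfl5, at 14.1 and 16.5 RPM, were above the CsA values there. Log2 differences of the 11 ran from -1.57 to -0.94 and adjusted p-values from 0.059 to 0.087. All 11, and Kit, Tcf12 and Tcfl5, were called lower without the 3 widely spread libraries. With median-ratio scaling none of them was called, at limma adjusted p-values of 0.067 to 0.190.

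**Figure D3:**
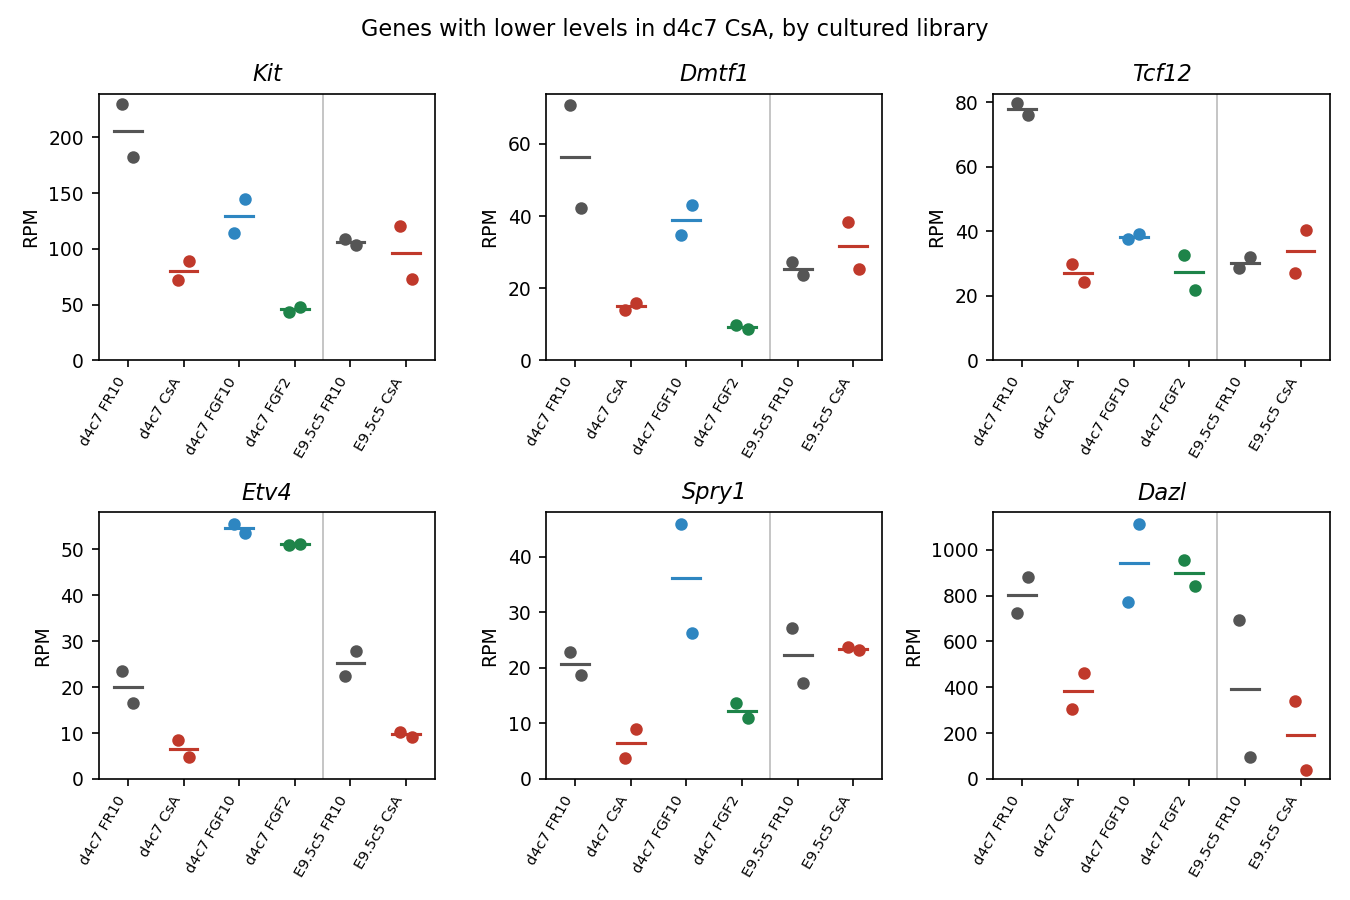
RPM of 6 genes with lower values in CsA in each of the 12 cultured libraries, with points for libraries and lines for means of 2. The FR10 and CsA libraries of d4c7 do not overlap in any panel, and in cultured E9.5 germ cells the 2 CsA libraries lie below the FR10 libraries only for Etv4.

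Genes that respond to FGF receptors through MAPK, among them feedback inhibitors and ETS factors, were mostly lower. Of 19 tested, 0 were higher and 16 (84.2%) lower in both CsA libraries, against 41.6% of all tested genes, and the median log2 difference was -0.90. None passed in the fit of all 18 libraries, and 7 of the 19 fell without the 3 widely spread libraries, where 8.29% of all tested genes did. The ETS factor Etv4 measured 23.6 and 16.6 RPM with FR10 and 8.39 and 4.83 RPM with CsA (log2 -1.49 ± 0.40, adjusted p 0.142). Spry1, an inhibitor of receptor tyrosine kinase signalling, measured 22.8 and 18.6 RPM against 3.76 and 9.06 RPM (log2 -1.64 ± 0.43, adjusted p 0.140). Spred1, a Sprouty-related inhibitor, measured 25.9 and 35.2 RPM against 12.7 and 6.95 RPM. CsA values of these 3 genes were below every FR10 value. Etv5, the most abundant of the ETS factors here, went from 180 and 189 RPM to 121 and 131 RPM (log2 -0.54 ± 0.28). Dusp6, the ERK phosphatase, was near the detection limit, at 5.81 and 8.63 RPM against 1.74 and 1.21 RPM, and Myc was at 5.03 and 4.49 RPM against 0.868 and 0 RPM. Libraries with FGF10 or FGF2 held 0 to 1.53 RPM of Dusp6, so its low level was not particular to CsA, and 2.43 to 21.5 RPM of Myc. Low levels of Spry1 and Spred1 were not particular to CsA either. With FGF2, Spry1 was at 13.7 and 10.9 RPM and Spred1 at 11.04 and 3.89 RPM, below both FR10 libraries. Etv5 was also below both FR10 libraries with FGF2, while Etv4 was above both. With FGF10, none of Spry1, Spred1, Etv5 and Etv4 was below both FR10 libraries. Summed over the list of 20, the level was 578 and 600 RPM with FR10 and 363 and 347 RPM with CsA, while the FGF10 libraries held 772 and 649 RPM and the FGF2 libraries 559 and 423 RPM. In the fibroblast list 0 of 12 tested genes were higher and 4 (33.3%) lower, a smaller share than over all tested genes, while its median was -0.79. Its summed level, given above, did not separate the groups, and Cxcl12 went from 20.9 and 20.0 RPM to 5.21 and 1.81 RPM. The part of feeder RNA in the FGF and MAPK list was not tested.

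Germ cell specification genes had overlapping or nearly equal values. Prdm1 measured 70.5 and 69.7 RPM with FR10 and 63.4 and 62.5 RPM with CsA, Prdm14 68.2 and 61.5 RPM against 57.0 and 78.0 RPM, and Tfap2c 70.5 and 73.5 RPM against 66.3 and 73.7 RPM. These 3 genes encode the transcription factors known to specify germ cells. Their log2 differences of -0.15 ± 0.43, 0.04 ± 0.31 and -0.04 ± 0.26 were each smaller than their errors. Those errors draw on the spread of all 18 libraries, and for Prdm1 both CsA libraries lay below both FR10 libraries. Dppa3 (Stella) held 1495 and 1495 RPM against 1554 and 1620 RPM, and Nanos3 19.0 and 36.9 RPM against 24.9 and 23.0 RPM. The sign of such small differences depended on the scaling for Prdm1, Tfap2c and Nanos3, which were positive with median-ratio scaling. Of 16 tested early germ cell genes, 4 (25%) were higher and 4 (25%) lower, with a median of -0.04, where all tested genes gave 11.4% and 41.6%.

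Later germ cell genes leaned to the lower side. Dazl, an RNA-binding protein needed for germ cell licensing, measured 724 and 881 RPM with FR10 and 304 and 462 RPM with CsA. The groups were separate, yet the log2 difference of -1.09 ± 0.78 had an adjusted p of 0.563, and 0.011 without the 3 widely spread libraries. In E9.5c5 FR10, 1 library held 694 RPM and the other 93.7 RPM, a spread which enters that error. Ddx4, the Vasa helicase, measured 85.6 and 73.5 RPM against 50.6 and 47.1 RPM (log2 -0.69 ± 0.58, adjusted p 0.642). Slc25a31, a germline ADP/ATP carrier, measured 25.9 and 19.0 RPM against 4.63 and 10.6 RPM (log2 -1.52 ± 0.50, adjusted p 0.219). Of 14 tested later germ cell genes 0 were higher and 10 (71.4%) lower, where all tested genes gave 11.4% and 41.6%, and the median was -0.73. Their sum was 1337 and 1454 RPM with FR10 and 663 and 838 RPM with CsA.

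Chromatin genes were mostly on the lower side. Among 22 tested histone-modifying enzymes 0 were higher and 16 (72.7%) lower, against 41.6% of all tested genes, with a median of -0.57, or -0.47 after the length correction. Kdm1a, an H3K4 demethylase, measured 53.1 and 38.3 RPM with FR10 and 21.4 and 17.8 RPM with CsA, and Hdac1, a histone deacetylase, 162 and 153 RPM against 86.8 and 96.4 RPM. Suz12 and Eed, partners of Ezh2 in Polycomb complex PRC2, differed by -0.89 ± 0.27 and -0.70 ± 0.24. Adjusted p-values of these 4 ran from 0.154 to 0.225, and all 4 were called without the 3 widely spread libraries. With median-ratio scaling the limma adjusted p-values ran from 0.286 to 0.560, and none was called. DNA methylation and Tet enzymes gave 1 (12.5%) higher and 6 (75%) lower of 8. The S phase list gave 0 higher and 11 (57.9%) lower of 19, and its median of -0.24 was that of all tested genes. In it stood Pcna, the replication clamp, at 1035 and 751 RPM against 481 and 482 RPM, and Mcm4, a helicase subunit, at 239 and 187 RPM against 128 and 132 RPM. The FGF2 libraries were also below FR10, at 363 and 369 RPM of Pcna and 156 and 155 RPM of Mcm4. The G2 and M phase list gave 0 higher and 17 (85.0%) lower of 20, with a median of -0.35. Bub1b, of the spindle checkpoint, was at 139 and 187 RPM against 90.9 and 103 RPM, and Kif11, a spindle motor, at 63.5 and 48.7 RPM against 26.9 and 36.6 RPM. With median-ratio scaling the medians of the S phase and the G2 and M phase lists were -0.02 and -0.13.

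**Figure D4:**
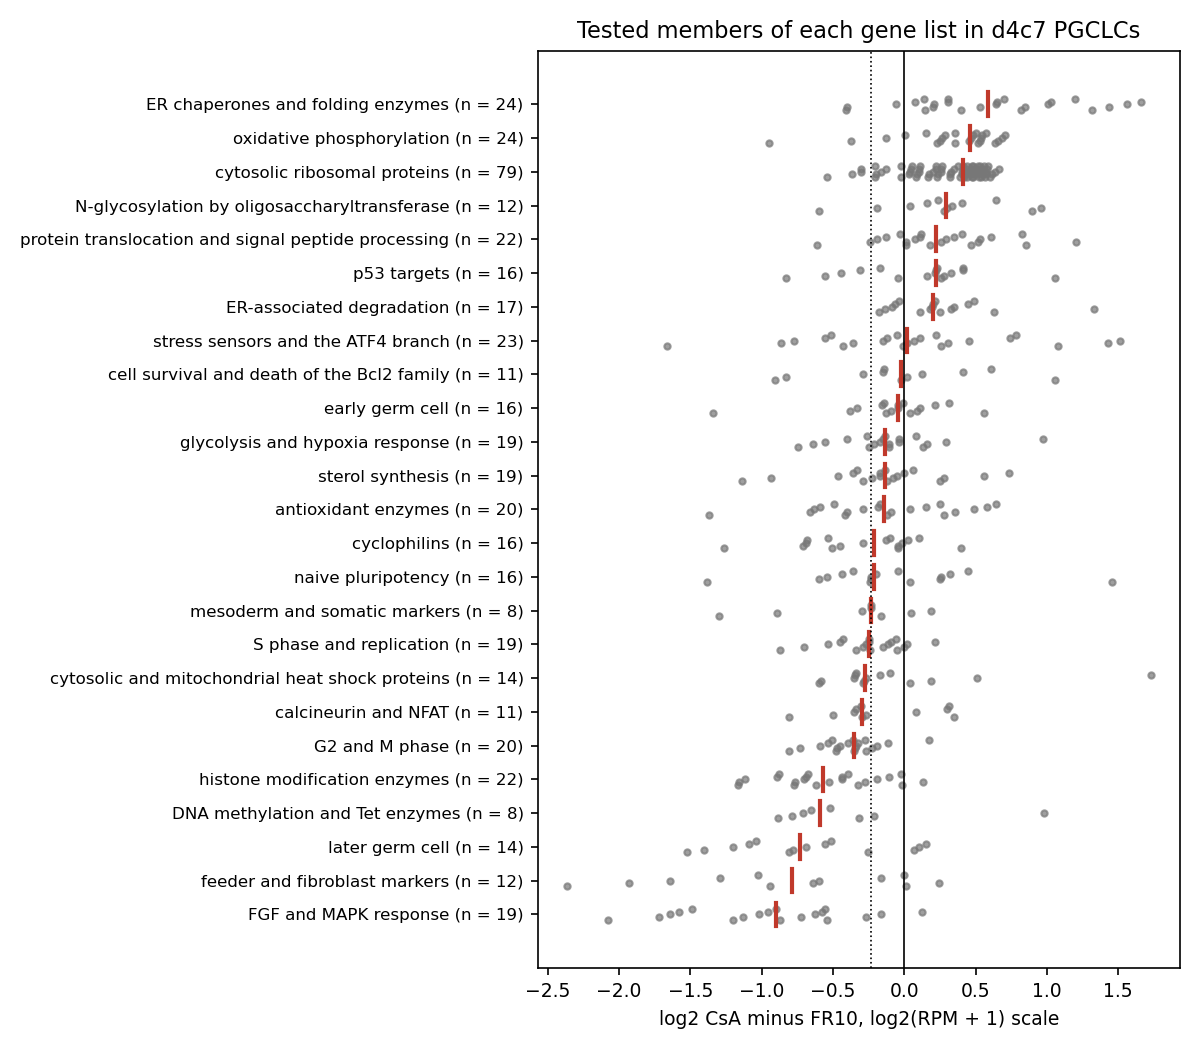
Each grey point is a tested member of a gene list, placed by its log2 difference, CsA minus FR10, and each red bar is the list's median. The dotted line is the median of all tested genes. ER chaperones have the highest median, 0.59, and FGF and MAPK response genes the lowest, -0.90.

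Higher values were not limited to the ER. Hspb1, a small heat shock protein of the cytosol, had the largest log2 difference of the 15 higher genes with the lowest p-values, at 97.2 and 191 RPM with FR10 and 421 and 488 RPM with CsA (1.73 ± 0.39, adjusted p 0.103). Both CsA libraries were above both FR10 libraries, but the FGF2 libraries, at 540 and 1058 RPM, were higher again. The list of 14 tested cytosolic and mitochondrial heat shock genes gave 2 (14.3%) higher and 6 (42.9%) lower, with a median of -0.28. These shares were close to the 11.4% and 41.6% of all tested genes. Slc2a3, the neuronal-type glucose transporter, went from 250 and 359 RPM to 585 and 593 RPM (log2 0.97 ± 0.20, adjusted p 0.086). The glycolysis and hypoxia list gave 2 (10.5%) higher and 8 (42.1%) lower of 19, also close to all tested genes. Ucp2, a mitochondrial carrier, went from 34.1 and 38.7 RPM to 79.6 and 72.5 RPM (log2 1.05 ± 0.25, adjusted p 0.116). The last of the 15 were Tma7 and Serf2, with log2 differences of 0.76 ± 0.16 and 0.65 ± 0.16, and Cox5b.

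Oxidative phosphorylation genes were higher in 19 (79.2%) and lower in 2 (8.33%) of 24 tested, with a median of 0.46. All tested genes gave 11.4% and 41.6%. Cox5b, a subunit of cytochrome c oxidase, measured 372 and 410 RPM with FR10 and 633 and 623 RPM with CsA (log2 0.68 ± 0.15, adjusted p 0.104). Uqcrq of complex III and Atp5j of the ATP synthase differed by 0.70 ± 0.19 and 0.66 ± 0.19. This list is made of short transcripts, with a median of 760 bases where tested genes have 3111, and after the length correction its median was -0.05. The list of cytosolic ribosomal protein genes was added after values were seen, and its reads can be shared with pseudogenes. Of its 79 tested genes, 59 (74.7%) were higher and 8 (10.1%) lower. Their median of 0.41 became -0.02 after the same correction.

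Transcript length went with the difference over the whole transcriptome. Among 9377 tested genes with a length, the shortest of 5 equal classes (348 to 1746 bases) had a median log2 difference of -0.05 and the longest (5128 bases and over) -0.35, with the classes between at -0.22, -0.26 and -0.29. Without ribosomal protein genes the shortest class was at -0.07. In E9.5c5 the corresponding medians ran from -0.04 to -0.16. The ER chaperone and the FGF and MAPK medians stayed at 0.57 and -0.93 after the length correction. The cause of this relation was not tested.

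**Figure D5:**
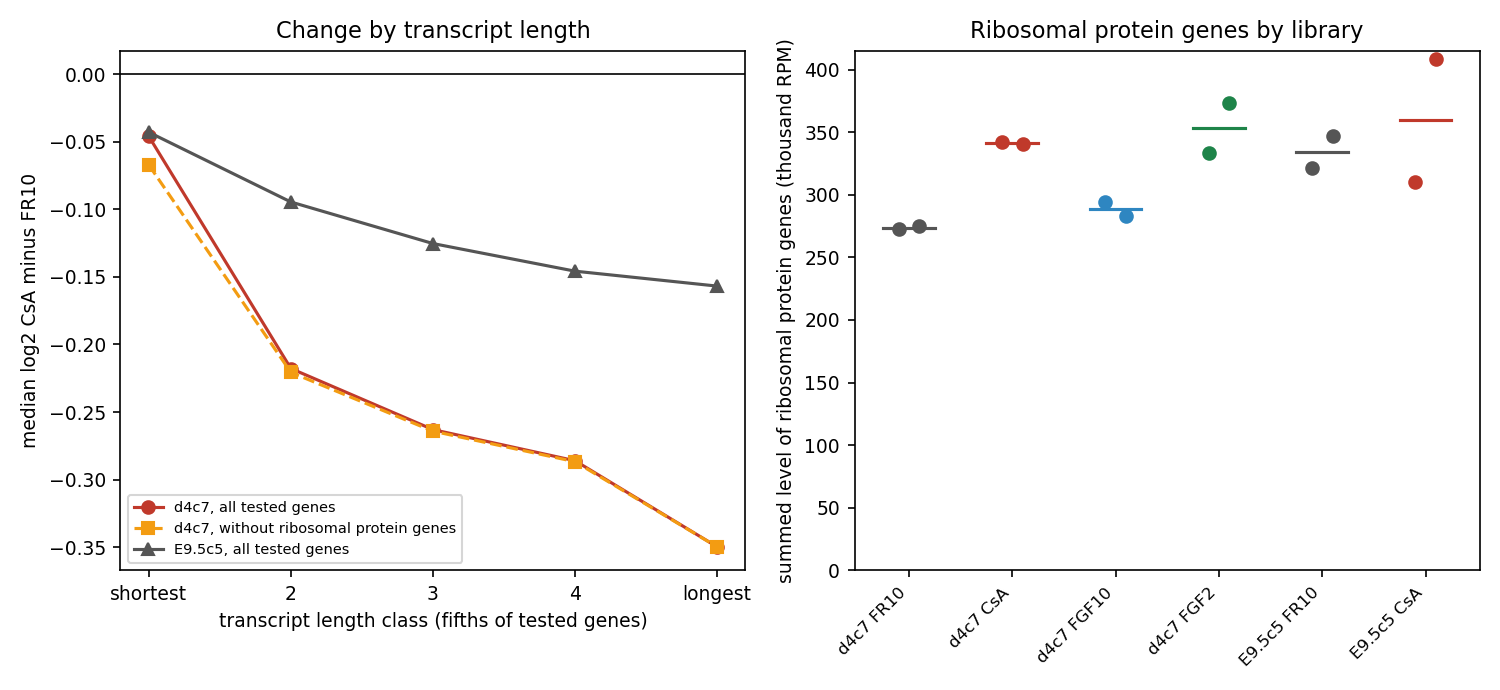
Left, the median log2 difference, CsA minus FR10, in 5 classes of tested genes by transcript length, for d4c7 with and without ribosomal protein genes and for E9.5c5. Right, summed RPM of ribosomal protein genes in each cultured library, with lines for means of 2. The d4c7 medians go down from -0.05 to -0.35 with length. Ribosomal genes take more of both CsA libraries than of both FR10 libraries in d4c7 but not in E9.5c5. In the d4c7 FGF2 libraries their share is near or above that with CsA.

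Survival and metabolic lists held genes on both sides, where all tested genes gave 11.4% higher and 41.6% lower. The Bcl2 family gave 2 (18.2%) higher and 3 (27.3%) lower of 11, and p53 targets 5 (31.2%) higher and 4 (25%) lower of 16. Sterol synthesis gave 3 (15.8%) higher and 5 (26.3%) lower of 19, and antioxidant enzymes 5 (25%) higher and 9 (45%) lower of 20. Naive pluripotency genes gave 4 (25%) higher and 6 (37.5%) lower of 16. The 5 medians, in that order, were -0.02, 0.22, -0.14, -0.14 and -0.21, against -0.24 for all tested genes. No member of these lists passed in the fit of all 18 libraries.

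Cultured E9.5 germ cells allowed the CsA difference to be set beside an independent pair of groups, since no library is shared. There limma called 0 genes, with 703 (7.35%) at an unadjusted p under 0.05, and 823 genes (8.61%) were higher and 1602 (16.8%) lower without overlap. Over all 9561 tested genes the log2 differences of the 2 sources had a Pearson r of 0.17 and a Spearman rho of 0.15 across genes, and over the 1646 genes averaging 100 RPM or more r was 0.40 and rho 0.35. Genes are not independent replicates, and these are descriptions. In the ER chaperone list 10 of 24 genes were higher and 1 lower in E9.5c5, with a median of 0.65. Hsp90b1 measured 370 and 364 RPM with FR10 and 826 and 723 RPM with CsA there, a log2 difference of 1.07 ± 0.16 (adjusted p 0.052), and Sec61b differed by 0.70 ± 0.17 (adjusted p 0.444). Hspa5 was at 187 and 107 RPM against 679 and 274 RPM, so that its 2 CsA libraries differed widely from each other. Its log2 difference was 1.60 ± 0.31 with an adjusted p of 0.181.

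Some genes lower in d4c7 had overlapping groups in E9.5c5. Kit was at 109 and 103 RPM with FR10 and 121 and 73.0 RPM with CsA there, Dmtf1 at 27.2 and 23.6 RPM against 38.3 and 25.3 RPM, and Tcf12 at 28.6 and 31.9 RPM against 27.1 and 40.5 RPM. Their differences of difference, d4c7 minus E9.5c5, were -1.17 ± 0.35, -2.09 ± 0.42 and -1.63 ± 0.40 on the log2 scale, each with an adjusted p of 0.677. Etv4 had like values in both sources, with log2 differences of -1.49 and -1.28. In E9.5c5 the FGF and MAPK list gave 1 higher and 7 lower of 19, with a median of -0.47, where all tested genes gave 8.61% and 16.8%. The oxidative phosphorylation median was 0.01 there. Over all genes the difference between sources was called for 0 of 9561 genes, with 616 (6.44%) at an unadjusted p under 0.05, so no gene was shown to respond differently in the 2 sources.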

How the data were processed

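RNA of 1 ng per sample was amplified and read by SC3-seq, which sequences transcript 3' ends, per the labels. The authors deposited RPM values, 1 per gene and library, without transcript length scaling. Per the submitters' processing notes, build mm10 was used with TopHat 1.4.1, Cufflinks 2.2.0 and cutadapt 1.3. No annotation or counting setting is stated there. Read numbers were inferred from the RPM steps, of which 99.7% to 99.9% per library were whole within 0.02 read. They cover counting error only.

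The members and gene lists were chosen with earlier results of these data known. Of 34896 genes, 46 had no value. Values were taken as log2(RPM + 1), on which scale the change of low genes is understated. limma 3.58.1 in R 4.3.3 was fitted to all 18 libraries with 1 mean for each of 9 groups, an empirical Bayes variance trend and 9 residual degrees of freedom, for genes at 10 RPM in at least 2 libraries. Adjusted p-values are from limma, by Benjamini-Hochberg over all 9561 tested genes. An exact permutation test of 2 against 2 libraries cannot go below 0.333 and was not used. Genes were named as the 15 higher and 15 lower by smallest p with groups that do not overlap, leaving out predicted, clone and small RNA genes, up to 6 members per list by smallest p, and a fixed panel. Dnajc3, Canx and Syvn1 were named for their promoter matches after their values were seen. Not every gene the rule allows is described. The 24 lists hold 443 genes, the files list 442 of them and 394 passed the filter, and ribosomal proteins form a further list. Procedures were tested on simulated data. Alternatives were pseudocounts, filters, scaling, library weights, library subsets, left-out replicates, a replicate block and a length correction (loess span 0.5) chosen after seeing the data. Promoters are RefSeq's (GRCm38.p6).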

Additional observations from a re-analysis of the deposited data

How the results depend on the processing

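For CsA against FR10 in d4c7, limma called 3 genes with a pseudocount of 1 or 0.1 RPM and 11 with 10 RPM. It called 37 without a filter on low values, 21 with a filter at 50 RPM, 9 with median-ratio scaling, 474 with array weights and 968 without the 3 widely spread libraries of other groups. It called 0 with the 12 cultured libraries alone, 0 with the 8 d4c7 libraries alone, 0 with the 4 libraries alone, and 0 when any 1 replicate of the comparison was left out. With the length correction 2 were called. The replicate block gave 0 calls. Same-numbered replicates did not deviate together (correlation -0.03). This cannot show whether the samples were paired in culture or processing. For the difference between d4c7 and E9.5c5, with 0 calls, there was 1 call without a filter and between 0 and 6 when 1 replicate was left out, the 6 without E9.5c5 CsA replicate 1. The cause of these changes was not tested. The test of recovered counts was not run, because some values lay far below 1 read.

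Over the 73 genes named by value, 1156 values under alternatives were computed: 975 kept their direction and their side of the threshold, 142 newly passed it, 25 no longer passed and 14 changed sign. The changes of sign were all among small differences. With median-ratio scaling the log2 difference was 0.22 for Ppia, 0.073 for Prdm1, 0.18 for Tfap2c and 0.076 for Nanos3, and with the length correction it was -0.25 for Dppa3. When 1 replicate was left out it ranged from -0.12 to 0.40 for Canx, from -0.17 to 0.61 for Syvn1, from -0.10 to 0.076 for Ppia, from -0.18 to 0.26 for Prdm14, from -0.12 to 0.034 for Tfap2c and from -0.61 to 0.32 for Nanos3. The median log2 of ER chaperones and folding enzymes lay between 0.37 and 0.80 over these settings, and that of the FGF and MAPK response between -1.10 and -0.50. Values under about 1 RPM rest on at most 3 reads.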
